A study of Mus musculus with 2 samples.

Results

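Endothelial cells of the vomeronasal organ (VNO) that held mRNA of an endothelial selectin were studied as 1 group, called venous endothelial cells with Sele or Selp. A barcode was a member when it had 200 to 9000 genes, at most 5% of its unique molecular identifiers (UMIs, each marking 1 captured mRNA molecule) from mitochondrial genes, at least 1 UMI each of Pecam1 and Cdh5, at least 1 UMI of Sele and Selp together, and at most 2 UMIs of the macrophage genes C1qa, C1qb and C1qc together. The rule found 383 members among 10591 cells within the gene and mitochondrial limits and 24084 deposited barcodes, with 195 members in library 1 and 188 in library 2. Another 184 cells, 92 in each library, met every part of the rule except that they held neither selectin, and these served as comparators. The study dissociated whole VNO of wild-type C57BL/6J male mice at postnatal day 60 to survey its stem cells, neurons and other cell types in 2 samples that each gave 1 droplet-based library. Both libraries belong to the same genotype, sex and age, so no treatment or genotype was compared, and each library pools animals. The cells were released with papain and collagenase, frozen and thawed before capture.

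Postcapillary venules and small veins are where most leukocytes leave the blood. E-selectin (Sele) and P-selectin (Selp) are endothelial lectins that slow leukocytes so that they roll along the vessel wall, after which VCAM1 and ICAM1, the ligands of leukocyte integrins, hold them firmly. P-selectin is stored with von Willebrand factor in Weibel-Palade bodies, E-selectin is made anew when NF-kB is activated by inflammatory cytokines, and the transcription factor Nr2f2 (COUP-TFII) is the classical determinant of venous identity.

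The libraries held 108005626 and 95442231 UMIs, and medians over cells within the limits were 6668 and 6649 UMIs. No barcode sequence of an endothelial cell was shared by the libraries (3 were shared among all cells within the limits). Members were deeper than comparators, with a median of 8369 against 4724.5 UMIs and 2715 against 1961.5 genes per cell, while the median mitochondrial share was 2.91% against 3.15%. A deeper cell has more chances to show a selectin UMI, so shares of cells are also given after each cell was thinned to 4483 UMIs, which left out 56 members and 86 comparators that were shallower. Scrublet called 8 members and 5 comparators doublets. Within each group the sums of the 2 libraries lay further apart than sampling noise alone gives, but the labels do not say that they hold separate animals. The labels give 5 VNOs for each sample and the paper 5 mice in total, so if both counts hold the libraries share animals. The tests below therefore measure only the spread between these samples.

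The region just before the transcription start of 5 genes is shown because Sele and Selp choose the cells and Icam1, Cxcl1 and Cxcl2 were higher in the cells so chosen than in the comparators. Each sequence is the 250 bases before a RefSeq start (GRCm38.p6), 5′ to 3′ on the strand of the gene, and all 5 genes lie on the forward strand. Capitals mark matches on either strand to GGNNTTTCC, to GGNNATTCC or to the NF-kB decamer, motifs that overlap one another. They lie at chr1:164047984-164048233 for Sele, chr1:164115014-164115263 for Selp, chr9:21015690-21015939 for Icam1, chr5:90890995-90891244 for Cxcl1 and chr5:90903649-90903898 for Cxcl2.
Sele: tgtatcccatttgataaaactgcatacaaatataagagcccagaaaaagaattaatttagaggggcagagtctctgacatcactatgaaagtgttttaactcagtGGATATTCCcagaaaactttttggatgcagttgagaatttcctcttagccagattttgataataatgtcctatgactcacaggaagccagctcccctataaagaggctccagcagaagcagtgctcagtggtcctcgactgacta
Selp: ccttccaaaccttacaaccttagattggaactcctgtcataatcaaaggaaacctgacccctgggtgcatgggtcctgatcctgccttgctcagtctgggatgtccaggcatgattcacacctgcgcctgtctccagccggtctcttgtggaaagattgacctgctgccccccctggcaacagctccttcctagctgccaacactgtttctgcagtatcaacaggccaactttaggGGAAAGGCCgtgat
Icam1: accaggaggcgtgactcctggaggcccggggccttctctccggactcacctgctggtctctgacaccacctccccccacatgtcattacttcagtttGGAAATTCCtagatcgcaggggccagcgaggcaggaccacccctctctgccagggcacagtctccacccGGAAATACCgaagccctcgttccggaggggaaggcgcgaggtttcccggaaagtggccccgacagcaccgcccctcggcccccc
Cxcl1: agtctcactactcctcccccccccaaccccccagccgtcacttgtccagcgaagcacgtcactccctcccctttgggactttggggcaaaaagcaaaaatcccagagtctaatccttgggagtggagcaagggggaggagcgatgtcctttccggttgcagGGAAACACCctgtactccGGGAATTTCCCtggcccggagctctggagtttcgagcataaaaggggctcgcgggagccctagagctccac
Cxcl2: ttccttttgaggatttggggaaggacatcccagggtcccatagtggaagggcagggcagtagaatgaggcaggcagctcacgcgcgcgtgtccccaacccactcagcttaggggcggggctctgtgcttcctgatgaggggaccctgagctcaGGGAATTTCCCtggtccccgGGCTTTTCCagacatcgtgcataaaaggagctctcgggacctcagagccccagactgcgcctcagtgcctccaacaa

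Sele had 1 match, 145 to 137 bases before the start, and Selp had 1 on the opposite strand close to the start, 14 to 6 bases before it. In Icam1 the capitals mark a run 153 to 145 bases and another 84 to 76 bases before the start, while in Cxcl1 and Cxcl2 runs that match both 9-base patterns and the decamer end 61 and 87 bases before it. A further match to GGNNTTTCC lies 89 to 81 bases before the start of Cxcl1 and 77 to 69 bases before that of Cxcl2. Of 32851 RefSeq promoter windows of this length, 12.3% held at least 1 of the motifs, 7.25% the decamer, 4.93% GGNNTTTCC and 2.36% GGNNATTCC. The windows of Ackr1, Ptgs2, Cxcl12 and Sema3g held no match, and Gja4, which was lower in members, held 1. Nfkbia and Tnfaip3, higher in members, held 4 matches in 1 window, and 6 and 1 matches in 2 windows, counting overlapping motifs separately. A match of letters is a description and not a site of binding.

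Sele (ENSMUSG00000026582, chromosome 1 from 164048234 to 164057677, forward strand) and Selp (ENSMUSG00000026580, chromosome 1 from 164115264 to 164150026, forward strand) are neighbouring genes, and their UMIs chose the members, so their values are a description only. Members held 1680 UMIs of Sele and 1591 of Selp in all, with a median of 2 UMIs of each per cell and at most 57 and 45. Both selectins were seen in 220 members (57.4%), Selp alone in 89 (23.2%) and Sele alone in 74 (19.3%). The share with both was 49.2% in library 1 and 66.0% in library 2, and it was the deeper class, with a median of 10024 UMIs against 7047 for Selp alone and 5746.5 for Sele alone. At the edge of the rule, 70 members held exactly 1 selectin UMI and the 184 comparators held 0. Members made up 67.5% of the 567 endothelial cells (95% exact interval 63.5 to 71.4%), with 67.9% in library 1 and 67.1% in library 2, and 68.8% when the rule was applied to thinned cells. Outside these endothelial cells, 167 of 10024 cells within the limits held a selectin UMI (1.67%). At least 1 selectin UMI was found in 1 of 901 neurons (0.111%), although neurons were deeper with a median of 15517 UMIs. It was found in 2 of 464 fibroblasts (0.431%) and in 32 of 1933 macrophages with at least 5 C1q UMIs (1.66%). Both the neurons and the fibroblasts were chosen to hold no Pecam1 or Cdh5 UMI. These intervals and limits cover counting error only.

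The other markers fixed for this cell type were checked before the groups were compared. Emcn, which encodes the sialomucin endomucin of veins and capillaries, was seen in 98.7% of members (96.3% after thinning) and in 0.113% of thinned neurons. Vcam1 (ENSMUSG00000027962, chromosome 3 from 116109949 to 116129688, reverse strand) was seen in 72.6% of members (95% exact interval 67.8 to 77.0%), and its share was 71.8% in library 1 and 73.4% in library 2. At equal depth a Vcam1 UMI was seen in 67.3% of members against 23.5% of comparators, 38.1% of fibroblasts and 0.339% of neurons. Nr2f2 was seen in 75.7% of members and 40.8% of comparators, or 57.2% and 39.8% after thinning. UMIs of genes of other vessel types were also found in members. After thinning, the fenestral gene Plvap was seen in 90.2% of members and 1.02% of neurons (95.6% of members unthinned). The VEGF receptor Kdr was seen in 67.3%, the capillary gene Gpihbp1 in 15.0% and Prox1, the determinant of lymphatic identity, in 12.5% of thinned members (79.6%, 21.4% and 24.0% unthinned), and none of the 3 was seen in thinned neurons. Comparators held Prox1 at a like share after thinning (13.3%). Gja5, an arterial connexin, had a UMI in 0 of 383 members, which allows a share of cells with a UMI of up to 0.783% and sets no limit on cells that express it. Ackr1, the chemokine receptor of venules, was seen in 14.1% of members (9.48% after thinning), in 1.09% of comparators and in 2.37% of thinned neurons. The interval of thinned members (6.53 to 13.2%) covers counting error over pooled cells and not the spread between libraries.

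**Figure D1:**
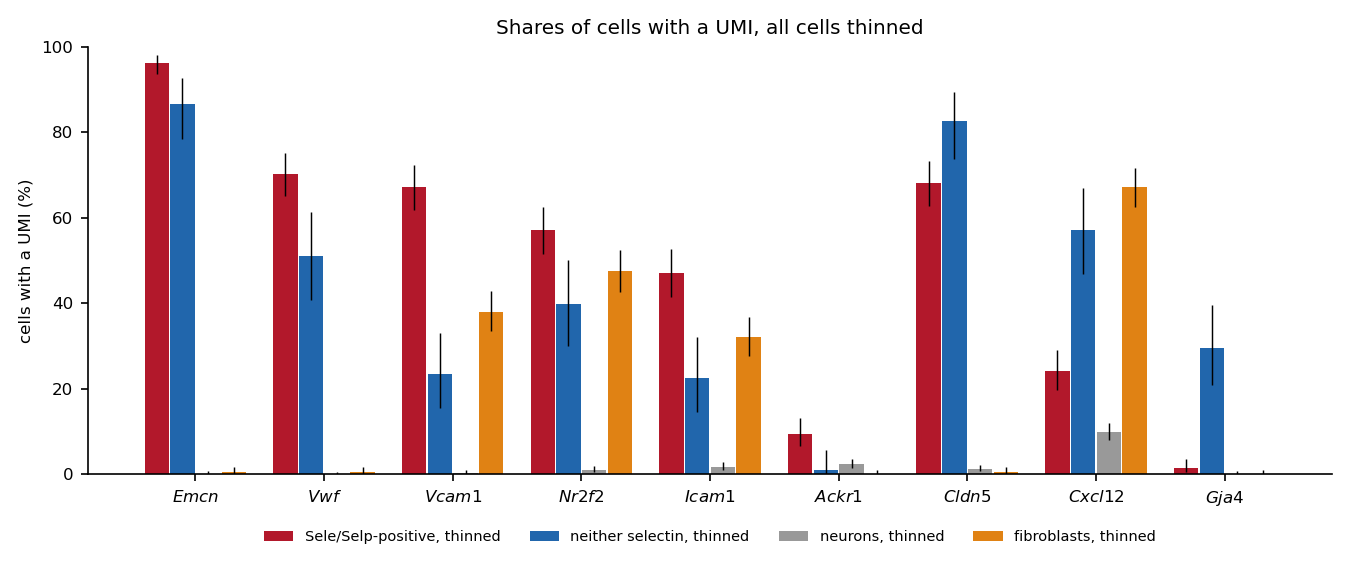
Share of cells with at least 1 UMI (y axis, percent) for 9 genes (x axis) in members, comparators, neurons and fibroblasts, each cell thinned to 4483 UMIs; lines are 95% exact intervals. Vcam1 and Icam1 stand higher in members (67.3% and 47.1%) than in comparators (23.5% and 22.4%), and Cxcl12 and Gja4 stand lower (24.2% and 1.53% against 57.1% and 29.6%).

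Members were then compared with comparators to see what else distinguishes endothelial cells that hold a selectin UMI. UMIs were summed per library and group and tested with the edgeR quasi-likelihood test, with Benjamini-Hochberg adjustment over 11709 genes and the 7 genes of the rule left out. At an adjusted p under 0.05, 99 genes were higher in members (0.846%) and 117 were lower (0.999%), 216 in all (1.84%), and the median log2 fold change over all genes was 0.01. Since the libraries are shared by both groups, a fit with the library as replicate block was also made, and it called 706 genes, among them all 216. Of the venous list (11 genes), 5 were higher and none was lower, with a median log2 fold change of 1.03.

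Levels below are counts per 1000000 UMIs of the summed group (CPM), for library 1 and then library 2. Vcam1 stood at 592 and 660.0 CPM in members and 153 and 172 in comparators, a log2 fold change of 2.05 ± 0.18 (SE, adjusted p = 0.000157). Vwf, the von Willebrand factor of Weibel-Palade bodies, stood at 488 and 549 against 266 and 281 (log2 fold change 1.03 ± 0.17, adjusted p = 0.0101). In both genes the groups did not overlap between libraries, which is a description only, since the share of all genes separated in this way was not counted. Bst1, which encodes the ectoenzyme CD157, stood at 76.9 and 77.1 against 22.2 and 30.9 and its log2 fold change was 1.63 (adjusted p = 0.00825). Ackr1 gave 65 and 49 UMIs in members and 2 and 0 in comparators, a ratio of 17.5 per UMI sequenced (95% counting interval 4.72 to 146, edgeR adjusted p = 0.0105). Of the venous genes that were not called, Nr2f2, Ephb4, Lrg1, Il1r1, Tll1 and Emcn had log2 fold changes between 0.18 and 1.22. Nr2f2 came closest, at 195 and 293 against 109 and 162 CPM (log2 fold change 0.94 ± 0.23, adjusted p = 0.0668), and Emcn, at 1028 and 894 against 1017 and 773, overlapped between groups. With the library as replicate block, Nr2f2 and Lrg1 also passed (adjusted p = 4.49e-05 and 0.000119). Without the library 2 members Vwf missed the threshold (log2 fold change 0.98, adjusted p = 0.0600). With cells thinned before the rule, Bst1 missed it (1.32, adjusted p = 0.157). When every cell with a UMI of Prox1, Flt4, Lyve1, Mmrn1 or Ccl21a was left out of both groups, 37 genes were called in place of 216. Of the venous list Vcam1 passed (log2 fold change 1.70, adjusted p = 0.021) while Vwf, Bst1 and Ackr1 did not, with log2 fold changes of 0.77, 1.76 and 3.33. That setting kept 118 members in each library and 63 and 58 comparators. Its members held 923551 and 953371 UMIs in place of 1820328 and 1958974. The part of this loss of cells and UMIs in the lost calls, here and below, was not tested.

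**Figure D2:**
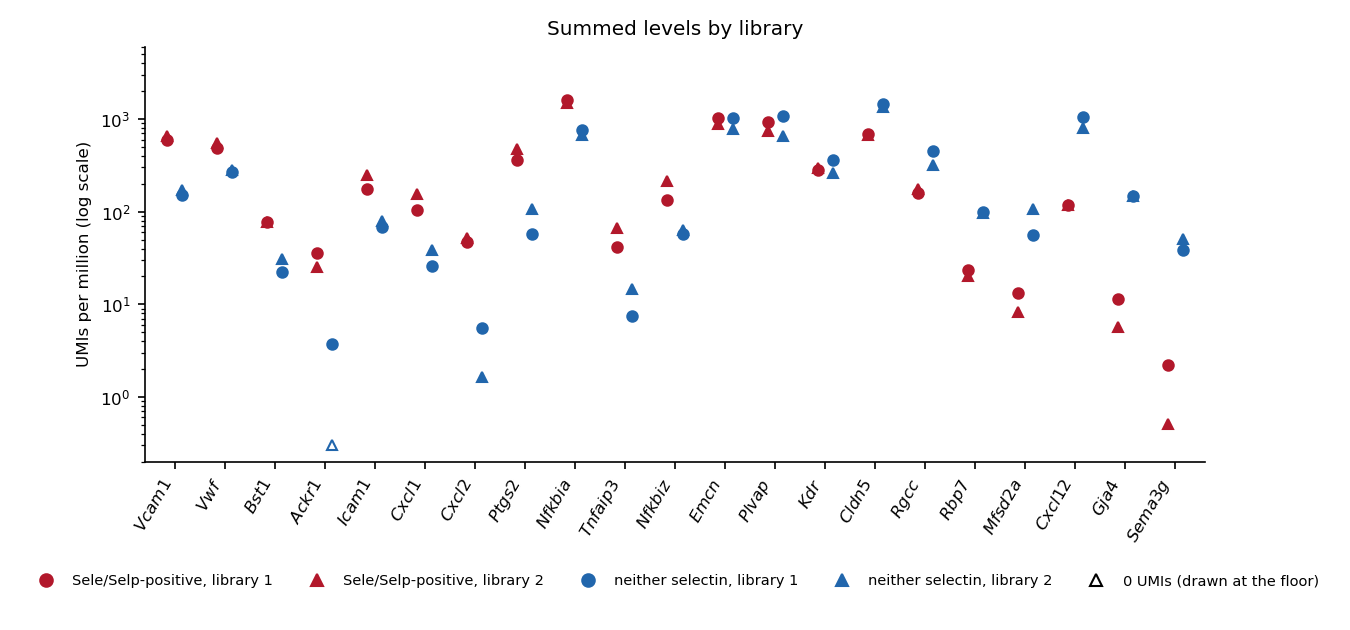
CPM (y axis, log scale) of 21 genes (x axis) summed over members (red) and comparators (blue), circles for library 1 and triangles for library 2; an open symbol is a sum of 0. The 11 genes at the left, from Vcam1 to Nfkbiz, are higher in members of both libraries, and those at the right, from Cldn5 to Sema3g, are lower in both.

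Of 9 arterial genes tested, 6 were lower and none was higher (median log2 fold change -1.43). Gja4, the connexin that couples arterial endothelial cells, stood at 11.5 and 5.62 CPM in members and 146 and 149 in comparators (log2 fold change -3.99 ± 0.30, adjusted p = 7.27e-05), and thinned cells with a UMI were 1.53% against 29.6%. Sema3g, a semaphorin of arteries, stood at 2.20 and 0.510 against 38.8 and 50.3 (log2 fold change -4.87 ± 0.51, adjusted p = 0.00082). Both were called in each of 15 alternatives in which they were tested. The transcription factor Sox17, the Notch ligand Dll4, the kinase Bmx and the elastic fibre protein Fbln5 were lower by log2 fold changes of -0.90, -1.43, -1.56 and -1.65 (adjusted p from 0.0217 to 0.0466). Efnb2, Hey1 and Jag1 did not pass. These 4 calls each ended when a single sum was left out: Bmx without the library 1 comparators (adjusted p = 0.0620), Fbln5 without the library 2 comparators (log2 fold change -0.91, adjusted p = 0.163), Dll4 without the library 1 members or comparators (0.0649 and 0.0608), and Sox17 without any sum but the library 2 comparators (0.0848 to 0.145). With cells thinned before the rule, Sox17, Dll4, Fbln5 and the capillary gene Rbp7 below missed the threshold (adjusted p = 0.0694, 0.1, 0.239 and 0.0715). Of 9 capillary genes, 3 were lower and none was higher: Rbp7, a retinol-binding protein, at 23.6 and 20.4 against 99.7 and 97.4 CPM (log2 fold change -2.05 ± 0.24, adjusted p = 0.00123), Gpihbp1, which anchors lipoprotein lipase, at -1.36, and Rgcc at -1.09 on the log2 scale (adjusted p = 0.0531 without the library 2 members). The capillary genes Kdr and Aqp1 did not pass, with log2 fold changes of -0.01 and -0.06. Without cells holding a lymphatic UMI, 3 arterial genes and 1 capillary gene were called lower. Of 8 genes of tip cells and sprouting, Pgf, a ligand of the VEGF family, was lower (3.85 and 1.02 against 38.8 and 26.0, log2 fold change -3.59 ± 0.55, adjusted p = 0.00678), and with the block Esm1, Col4a1 and Col4a2 were lower as well (adjusted p from 0.00112 to 0.0338).

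Of 7 lymphatic genes, 6 were lower in members (median log2 fold change -2.43). Lyve1, a hyaluronan receptor of lymphatic vessels, stood at 13.7 and 15.3 CPM against 72.0 and 224 (log2 fold change -3.24 ± 0.41, adjusted p = 0.00218), and Ccl21a, the chemokine that lymphatic vessels secrete, at 767 and 549 against 1484 and 4621 (-2.09 on the log2 scale, adjusted p = 0.0166). Flt4, Pdpn, Mmrn1 and Reln were lower by log2 fold changes of -2.02, -2.73, -2.43 and -2.77. Members were not alike here, since those with Selp and no Sele held 53 UMIs of Lyve1 and 1952 of Ccl21a. Members with Sele held 2 and 520. The comparators of library 2 held more of Ccl21a, Lyve1 and Mmrn1 UMIs than those of library 1, and without the library 2 comparators the log2 fold change of Mmrn1 was -0.87 (adjusted p = 0.135). Pdpn was lost in the same way without the library 2 members (-2.23, adjusted p = 0.0514). Prox1, at 44.5 and 41.9 against 40.6 and 125 CPM, had a log2 fold change of -0.85 and missed the adjusted threshold (unadjusted p = 0.0345, edgeR adjusted p = 0.374). Of the 92 members with a Prox1 UMI, 84 held Nr2f2 (91.3%), 29 held Mmrn1 (31.5%) and 6 held Lyve1 (6.52%), whereas Lyve1 was seen in 1 of 291 members without Prox1. These shares were not thinned.

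Among 12 genes tested for leukocyte adhesion and passage, 3 were higher and 1 was lower (median log2 fold change -0.12). Icam1 (ENSMUSG00000037405, chromosome 9 from 21015985 to 21028817, forward strand) stood at 175 and 249 CPM against 68.3 and 79.6 (log2 fold change 1.62 ± 0.22, adjusted p = 0.00311), beside Vcam1 and Ackr1 above. Podxl, which encodes the anti-adhesive sialomucin podocalyxin of the luminal membrane, was the gene that was lower, at 120.3 and 99.5 against 275 and 305 (log2 fold change -1.29 ± 0.19, adjusted p = 0.00512). Icam2, Cd34, Cd99l2, Jam2, Jam3, F11r, Esam and Cd47 had log2 fold changes between -0.59 and 0.48 and did not pass. Madcam1, the addressin of mucosal venules, was seen in 1 of 383 members. Genes that build selectin ligands in high endothelial venules were near absent or not called (0 of 3 tested), with Chst4 at 0 and Glycam1 and Fut7 in 0.783% and 0.522% of members. Among members, Icam1 was seen in 68.0% of the 278 with a Vcam1 UMI and in 35.2% of the 105 without, and Vcam1 in 94.4% of the 54 with an Ackr1 UMI and in 69.0% of the 329 without. Depth moves both genes of such a pair, and these shares were not thinned.

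Of 9 chemokines tested, 2 were higher and 1 was lower. Cxcl1 and Cxcl2 encode chemokines that attract neutrophils. Cxcl1 stood at 105 and 156 CPM in members against 25.8 and 39.0 (log2 fold change 2.10 ± 0.27, adjusted p = 0.00236) and Cxcl2 at 47.2 and 52.1 against 5.54 and 1.62 (3.91 ± 0.45, adjusted p = 0.00125). Cxcl2 was concentrated in few cells, with a UMI in 8.88% of members and up to 48 UMIs in 1 cell. When cells were thinned before the rule was applied, its log2 fold change was 0.22 (adjusted p = 0.977), and Csf1 below also missed the threshold (0.84, 0.268), while Cxcl1 passed (1.47, 0.0281). Cxcl12, a homeostatic chemokine that retains cells bearing Cxcr4, stood at 118 and 117 against 1041 and 799 (log2 fold change -2.86 ± 0.20, adjusted p = 6.11e-05), and it was called in each of 16 alternatives. Ccl2, which attracts monocytes, stood at 179 and 22.0 against 1.85 and 0 and did not pass (adjusted p = 0.0523), while its blocked value passed (adjusted p = 6.08e-11). Of its UMIs in members, 216 came from 1 cell, and the 2 member libraries lay far apart. Of 10 genes for cytokines and their receptors, 2 were higher. These were Csf1, the growth factor of macrophages (118 and 125 against 55.4 and 61.7, log2 fold change 1.16, adjusted p = 0.0139), and Il6st, the signalling chain shared by receptors of the IL-6 family (519 and 546 against 262 and 312, 1.00, adjusted p = 0.0124). Il1r1, Tnfrsf1a and Tnfrsf1b, receptors of IL-1 and TNF, did not pass, with log2 fold changes of 0.99, 0.22 and 0.17. Il6st missed the threshold without the library 2 members (adjusted p = 0.0531). Without cells holding a lymphatic UMI, Cxcl12 stayed past the threshold, and Cxcl1, Cxcl2, Icam1, Csf1 and Il6st did not (adjusted p from 0.122 to 0.597), with log2 fold changes of 1.57, 3.03, 1.09, 0.63 and 0.72.

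The 14 genes listed as responding to NF-kB gave 5 that were higher and none that was lower (median log2 fold change 0.54). Nfkbia, the inhibitor that NF-kB itself induces, stood at 1605 and 1499 CPM against 766 and 669 (log2 fold change 1.22 ± 0.17, adjusted p = 0.00446). Tnfaip3, the ubiquitin-editing enzyme A20 that ends the response, stood at 41.8 and 66.9 against 7.38 and 14.6 (2.37 ± 0.39, adjusted p = 0.0101), and Nfkbiz, a nuclear cofactor, at 134 and 212 against 57.2 and 63.3 (1.62 ± 0.24, adjusted p = 0.00617). Socs3 and Ier3 were higher by log2 fold changes of 0.96 and 0.72, but Socs3 missed the threshold without the library 2 members (adjusted p = 0.114) and Ier3 without either member sum or the library 2 comparators (0.0841 to 0.3). The subunits Nfkb1 and Relb were close to 0, at 0.06 and -0.02, and neither passed. Ptgs2, which encodes the prostaglandin-forming enzyme COX-2, stood at 361 and 481 against 57.2 and 107 (log2 fold change 2.45 ± 0.25, adjusted p = 0.000737). Genes induced by tissue dissociation moved beside these: of 12, Atf3, Zfp36 and Nr4a1 were higher by log2 fold changes of 1.10, 0.84 and 0.93 and none was lower, 8 had an unadjusted p under 0.05, and 8 were called higher in the blocked fit. Zfp36 lost its call without the library 2 members (adjusted p = 0.435), as did Nr4a1 there (0.206) and without the library 1 comparators (0.0501). Their summed level was 20928 and 24082 CPM in members against 17401 and 18081 in comparators, and its part in the differences above was not tested. Without cells holding a lymphatic UMI, Tnfaip3 alone of the NF-kB list passed (log2 fold change 2.63, adjusted p = 0.0425), Nfkbia and Ptgs2 stood at 0.89 and 1.57 (0.094 and 0.0667), and no gene of the dissociation list passed.

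Of 14 genes of the Weibel-Palade body and of haemostasis, 3 were higher and 1 was lower. Besides Vwf, these were Procr, the receptor of protein C (216 and 148 CPM against 84.9 and 73.1, log2 fold change 1.32 ± 0.25, adjusted p = 0.0186), and F8, coagulation factor VIII (78.6 and 60.2 against 25.8 and 27.6, 1.48 ± 0.28, adjusted p = 0.0205). Plat, the tissue plasminogen activator, was lower (13.7 and 17.9 against 31.4 and 79.6, -1.72 ± 0.37, adjusted p = 0.0363). Angpt2, Edn1 and Thbd, whose products act on vessel stability, tone and coagulation, did not pass. Of 8 receptors of VEGF and angiopoietin, Nrp2, the co-receptor found on veins and lymphatic vessels, was higher (335 and 411 against 198 and 174, 1.11, adjusted p = 0.0103), Flt4 was lower, and Kdr, Flt1, Nrp1, Tek, Tie1 and Eng did not pass. In the Notch pathway (8 genes), the ligands Dll4 and Jag2 were lower (-1.43 and -1.24). Cldn5, the main claudin of tight junctions, was lower (689 and 679.9 against 1458 and 1351, log2 fold change -0.93 ± 0.16, adjusted p = 0.0137), and the other 5 junction genes did not pass. Of 6 barrier transporters, Mfsd2a, the lipid transporter of barrier capillaries, was lower (13.2 and 8.17 against 55.4 and 107, -2.83 ± 0.36, adjusted p = 0.00208). None of 6 genes of fenestrae and caveolae, 7 of MHC class II and 7 of MHC class I was called, with Plvap at 939.9 and 752 against 1071 and 655 and Cd74 at 417 and 506 against 375 and 879. The block added Cav1, Cavin2 and Cavin3, coat proteins of caveolae, as higher (log2 fold changes 0.41, 0.51 and 0.51, adjusted p from 0.00279 to 0.0260), Eng as higher (0.0188), and Notch4, the barrier transporter Slc7a5 and Isg15 as lower (0.0451, 0.00140 and 0.0326). Of 8 interferon-stimulated genes, Irf7 was lower (-1.24, adjusted p = 0.00973). Without the library 2 members, Nrp2 (adjusted p = 0.0536) and Cldn5 (0.187) missed the threshold, as did Cldn5 without the library 1 members (0.0501), and Plat (-0.91, 0.390) and Jag2 (-0.87, 0.177) missed it without the library 2 comparators. With cells thinned before the rule, F8 (0.46, adjusted p = 0.837), Procr (0.0539), Plat (0.351), Nrp2 (0.117) and Jag2 (0.55) missed the threshold. Without cells holding a lymphatic UMI, Procr, F8, Plat, Nrp2, Jag2, Cldn5, Mfsd2a and Irf7 all missed it (log2 fold changes 1.17, 0.81, -0.92, 1.00, -0.97, -0.82, -2.04 and -0.83, adjusted p from 0.0683 to 0.613). Cell division genes were rare, with Mki67 in 1.31% of members.

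**Figure D3:**
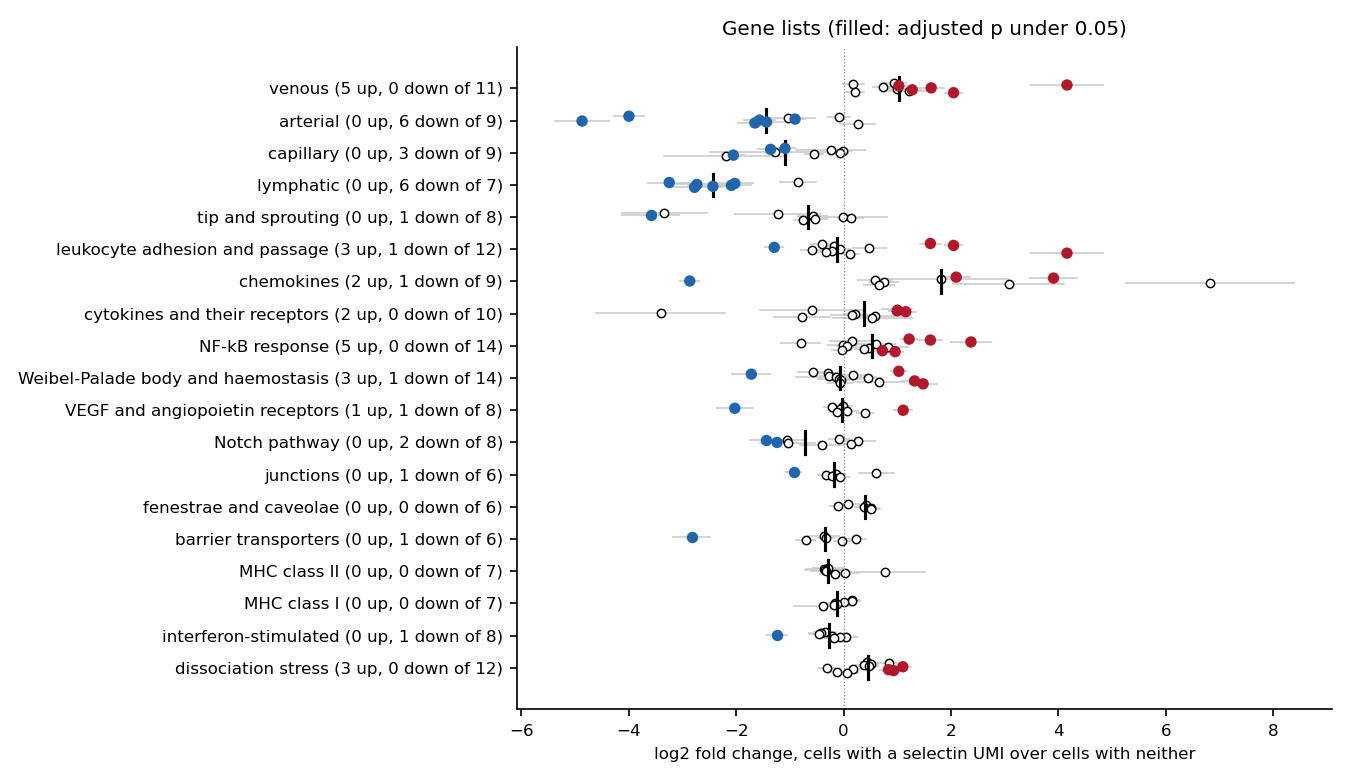
Log2 fold change of members over comparators (x axis) for the genes of 19 lists (y axis, with counts of called genes and genes tested); filled points passed an adjusted p under 0.05 (red higher, blue lower), grey lines are standard errors and black bars are list medians. The venous median lies at 1.03 and the arterial and lymphatic medians lie at -1.43 and -2.43, against 0.01 over all genes.

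Several of the largest differences rested on few cells. Among the 10 genes most raised in members, Hamp, which encodes the iron hormone hepcidin, gave 46 and 22 UMIs in members and 0 and 0 in comparators, at least 6.94-fold higher with a floor of 3 UMIs over the comparator group, but it was seen in 1.83% of members and 25 of its UMIs were in 1 cell. S100a8, an alarmin of neutrophils, gave 156 and 46 UMIs in members and 0 and 1 in comparators (ratio 61.9, 95% counting interval 11 to 2455). It was seen in 3.66% of members with 89 UMIs in 1 cell. When the rule was applied to thinned cells, S100a8 was called lower in members (log2 fold change -3.92, edgeR adjusted p = 0.00845). Epha5, a receptor tyrosine kinase seen in 95.4% of neurons, gave 27 and 43 UMIs in members and 0 and 2 in comparators (ratio 10.7, 2.86 to 90.2). It was seen in 4.44% of members with 19 UMIs in 1 cell, and its direction turned at a mitochondrial limit of 10%. Nfatc2, a calcium-regulated transcription factor, was broader, at 63.7 and 135 CPM against 16.6 and 19.5 (log2 fold change 2.55 ± 0.39, adjusted p = 0.00733) and in 41.5% of members against 8.70% of comparators, though it missed the threshold without cells holding a lymphatic UMI (2.09, adjusted p = 0.18). Fam124a, Ehd3 and Nexmif followed, with log2 fold changes of 2.68, 2.67 and 2.47, and with Ackr1, Cxcl2 and Ptgs2 they complete the 10. With cells thinned before the rule, Hamp, Epha5, Fam124a, Ehd3 and Nexmif missed the threshold (adjusted p from 0.179 to 0.702). None of these 10 genes passed without cells holding a lymphatic UMI (adjusted p from 0.0667 to 0.597), though each was still higher in members. Without the library 2 members, Epha5 (adjusted p = 0.0888) and Nexmif (0.0821) missed the threshold, as did Nexmif without the library 2 comparators (0.0649) and Fam124a without the library 1 members (0.0524). Among the 10 most lowered were Slc26a10, a member of an anion transporter family (1 and 1 UMIs in members and 16 and 16 in comparators, ratio 0.0191, 95% counting interval 0.00222 to 0.0750), and Ptprr, a receptor-type phosphatase (2.20 and 4.08 CPM against 57.2 and 37.4, log2 fold change -3.75 ± 0.43, adjusted p = 0.00123), both called in 15 of 15 alternatives. Rgs10, a regulator of G protein signalling, and the transcription factor Foxq1 had log2 fold changes of -3.94 and -3.77, and Foxq1 rested on the library 1 comparators (-1.97, adjusted p = 0.438 without them). St8sia6, a sialyltransferase, gave 1 and 2 UMIs in members and 14 and 15 in comparators (ratio 0.0317, 95% counting interval 0.00618 to 0.102), and Gm35167 gave 0 and 2 UMIs in members and 11 and 17 in comparators (ratio 0.0219, 0.00253 to 0.0867). Angptl7 and Dpep1, seen in 46.6% and 88.4% of fibroblasts, came from a few comparator cells, with up to 48 and 11 UMIs in 1 cell. St8sia6 and Rgs10 missed the threshold with cells thinned before the rule (adjusted p = 0.243 and 0.348). Angptl7, Foxq1, St8sia6 and Rgs10 missed it without cells holding a lymphatic UMI (0.0964, 0.0603, 0.165 and 0.458), though each was still lower in members.

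Markers of other cell types were summed in both groups. Platelet genes summed to 48.9 and 55.1 CPM in members and 38.8 and 24.4 in comparators, 2 of 6 were detected in members, and Ppbp, Gp9, Gp1bb and Gp1ba were at 0 in members, while Pf4 was seen in 21.4% of members. Macrophage genes (7 of 7 detected) summed to 116 and 177 against 310.1 and 259.9 with the C1q genes left aside, and neutrophil genes (4 of 6, with Ngp and Camp at 0) to 194 and 34.7 against 1.85 and 3.25. Mural genes (7 of 7) summed to 159.9 and 69.9 against 83.1 and 95.8, and epithelial genes (6 of 6) to 225 and 204 against 244 and 1127. Genes of ensheathing glia (5 of 5) summed to 85.1 and 8.68 against 1.85 and 14.6. Genes of T cells, B cells and red cells summed to at most 6.59 in a member library, with Cd3e, Trac, Cd79b, Ms4a1 and Alas2 at 0. Neuronal genes (6 of 6) summed to 1157 and 1236 against 1122 and 1000.4, nearly all of it Gnai2, which endothelial cells also express. Fibroblast genes (6 of 6) summed to 617 and 494 against 303 and 515. Their leading gene Dcn, a small proteoglycan of the matrix, was higher in members (438 and 462 against 164 and 273, log2 fold change 1.15 ± 0.21, adjusted p = 0.0178). A Dcn UMI was seen in 157 members (41.0%), of which 3 held Col1a2 and 7 held Lum. The Dcn difference was 0.05 on the log2 scale without cells holding a lymphatic UMI. With the block, Pf4 of platelets, S100a9 of neutrophils and Fabp7 of glia were called higher as well, and Lyz2 of macrophages, Cd79a of B cells, 3 fibroblast genes (Lum, Col1a2, Pdgfra) and 3 epithelial genes (Epcam, Krt8, Krt18) were called lower. The part of these markers in the calls was not tested gene by gene. Leaving out every cell with at least 3 UMIs of any of these lists, Gnai2 and Dcn not counted, kept 264 members among 405 endothelial cells and called 151 genes, 122 of them among the 216.

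Levels are next given by the number of selectin UMIs in a cell. The number chose the classes and deeper cells fall in higher classes (medians of 4724.5, 6089.5, 6372, 9163 and 11786.5 UMIs for 0, 1, 2 to 4, 5 to 9 and 10 or more selectin UMIs), so these values are a description with no test. Vcam1 stood at 163 CPM in comparators, 315 in the 70 members with 1 selectin UMI, 347 in 115 with 2 to 4, 628 in 86 with 5 to 9 and 898 in 112 with 10 or more. Nfkbia was level between 0 and 1 selectin UMI (715 and 710.3) and reached 2272 in the highest class. Icam1 went from 74.3 to 292, Atf3 from 1173 to 3042 and Ackr1 from 1.73 to 54.7. Vwf went from 274 with no selectin UMI to 395 with 1 and 577 in the highest class. In the other direction, Cxcl12 stood at 912, 298, 206, 75.2 and 27.7 in the same order, and Mfsd2a went from 82.9 to 0. Gja4 was at 148 in comparators and 40.3 with 1 selectin UMI, and at most 5.87 in any higher class. Emcn, between 887 and 1014, had no such order. Cxcl1 was not in order either, at 102 with 1 and 57.4 with 2 to 4 selectin UMIs. In the edgeR test, requiring at least 2 selectin UMIs gave 331 calls in place of 216, with all 216 among them. That setting kept the same comparators and 152 and 161 of the members, cut on the count that chose them. The repeated calls are therefore no separate check.

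**Figure D4:**
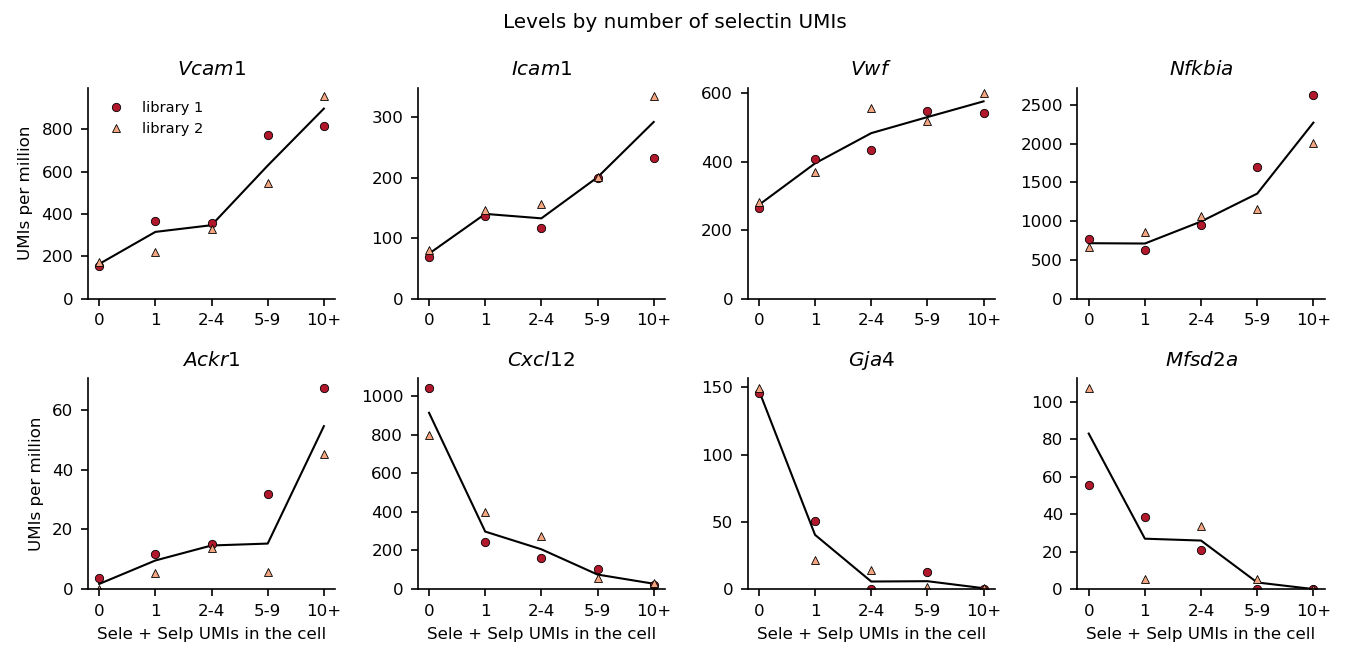
CPM (y axis) of 8 genes in endothelial cells grouped by their number of Sele and Selp UMIs (x axis; 0 is the comparators), with the line for both libraries together, circles for library 1 and triangles for library 2. From 0 to 10 or more selectin UMIs, Vcam1 goes from 163 to 898 and Cxcl12 from 912 to 27.7.

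The 294 members with Sele (143 and 151 per library) were compared with the 89 that held Selp without Sele (52 and 37). The edgeR test called 11 of 11117 genes (0.0989%), 3 higher (0.027%) and 8 lower (0.072%) in Sele-positive members, and 488 had an unadjusted p under 0.05. Cxcl10, a chemokine that attracts activated T cells, stood at 65.4 and 89.4 CPM against 13.1 and 0 (log2 fold change 3.26 ± 0.52, adjusted p = 0.0338), Cxcl2 at 61.0 and 59.6 against 6.53 and 7.12 (3.15 ± 0.42, adjusted p = 0.0147) and Nfkbia at 1882 and 1612 against 782 and 826 (1.15 ± 0.17, adjusted p = 0.0251). Lower were the lymphatic genes Lyve1 (0 and 2 UMIs against 25 and 28) and Mmrn1 (log2 fold change -2.38), the arterial connexin Gja4 (-4.04), the cytokine Il1b (-2.87), Fgl2 (-2.42), Krt14 (-2.30), Pard6g (-2.16) and Col1a1. Of the Col1a1 UMIs in Selp-only members, 125 came from 1 cell, so that value describes a single cell. All 7 lymphatic genes tested were lower in Sele-positive members with an unadjusted edgeR p under 0.05 (median log2 fold change -2.40). Ccl21a stood at 382 and 0 CPM against 1910 and 3827 in Selp-only members (edgeR adjusted p = 0.460). Whether some Selp-only members are lymphatic was not tested. Markers of other cell types stood beside these values. Lyz2 of macrophages was at 7.35 and 10.7 CPM against 28.3 and 381 (log2 fold change -4.27, adjusted p = 0.0742), S100a9 of neutrophils at 22.8 and 11.3 against 339.7 and 0, Lum of fibroblasts at 2.20 and 1.79 against 93.6 and 3.56 (-4.72, adjusted p = 0.0742) and Cd74 of MHC class II at 468 and 410.0 against 266 and 1082. The high values lay in 1 Selp-only library each, and their part in the calls was not tested. The venous list had no call among 11 genes, with Vcam1 at 629.6 and 715 against 479 and 331 (log2 fold change 0.73 ± 0.21, adjusted p = 0.542), and neither did the adhesion list (12 genes). With the library as replicate block no gene was called (0 of 11117, 408 with an unadjusted p under 0.05), and no gene was called after thinning and 1 was called without doublets, so the 11 calls depend on these choices.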

How the data were processed

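Single-cell RNA was measured in 2 droplet libraries of dissociated VNO cells. The counts are UMIs per gene and barcode, deposited as 1 raw matrix that the authors made with Cell Ranger 4.0.0 on mm10 and merged over both libraries. No source used here gives how that merging treated depth. The study's own cell filter is not applied in the deposited matrix, and no cell annotation was used here. The authors' later steps used Seurat 3.2.3.

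Cells were kept at 200 to 9000 genes and at most 5% mitochondrial UMIs (13 genes), and no count was normalized before testing. Barcodes were assigned to libraries by their suffix. The members and the gene lists were chosen with earlier results of these data known. UMIs of members and comparators were summed per library, and the 4 sums were tested with edgeR 4.0.16 (quasi-likelihood, TMM, genes with at least 10 UMIs, Benjamini-Hochberg, threshold 0.05) in R 4.3.3. DESeq2 1.42.0 was an alternative. Shares carry exact Clopper-Pearson 95% intervals (scipy 1.17.1), a limit for a count of 0 is 3 counts of the total, and levels are counts per 1000000 UMIs (CPM) of the summed group. Thinned cells were drawn at 4483 UMIs, the lower quartile of endothelial cells. Reference cells were neurons (at least 5 Omp UMIs) and fibroblasts (at least 5 UMIs each of Dcn and Col1a2), both without Pecam1 and Cdh5. Doublets were called with Scrublet in scanpy 1.11.5 at an expected 8%, which called 1.49% and 2.19% of cells, and were kept except in an alternative.

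Named genes were the 10 with the largest log2 fold change in each direction among those called, changed the same way in both libraries and holding at least 20 UMIs, the markers Vcam1 and Emcn, and members of the lists that were called or needed to give a list in full. Some genes that the rule names are not reported here. Gene positions are from GENCODE M21 on mm10, and promoter windows and motif matches are from RefSeq on GRCm38.p6. Vcam1 and Nfkbiz had no entry there. Same-numbered sums come from the same library and capture, which pairs them. The correlation of their deviations was 0.0928 for members against comparators and 0.108 for Sele-positive against Selp-only members (0.162 and 0.148 over genes with at least 50 UMIs). The labels name 5 VNOs for each sample, the paper counts 5 male mice in total, and neither says how the animals were divided. If both counts hold, the 2 samples shared animals. On simulated counts with known changes the test for members against comparators recovered 46% of genes changed by 1 on the log2 scale and 100% of those changed by 2, with 3.89% of calls false. The changes were placed only in genes at or above the median level. Counts were drawn with the spread that the test itself had fitted and with no effect of library. These rates therefore do not cover genes of lower level, library effects or genes concentrated in few cells. Alternatives were other tests, scalings and filters on low counts, the replicate block, each library sum left out, a mitochondrial limit of 10%, no doublets, thinned cells, at least 2 selectin UMIs, C1q at 0, and cells with UMIs of lymphatic or other cell types left out.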

Additional observations from a re-analysis of the deposited data

Results flagged for a closer look

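Beyond the cells kept by the mitochondrial limit, 67 barcodes met the gene part of the rule but had more than 5% mitochondrial UMIs, among 145 such endothelial barcodes. They held a median of 5594 UMIs. Vcam1 was seen in 65.7% of them, Emcn in 94.0%, Nr2f2 in 53.7%, Vwf in 85.1% and Icam1 in 50.7%, while Gja4 was seen in 7.46%. These barcodes entered no comparison above, and they stand out only as signal in cells left aside. Another 22 cells failed the rule only through more than 2 C1q UMIs, and 145 cells within the limits held a selectin UMI but lacked Pecam1 or Cdh5.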

How the results depend on the processing

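For members against comparators, 237 genes were called with DESeq2 size factors, 221 with filterByExpr, 230 at a mitochondrial limit of 10%, 274 without doublets and 151 without cells of other types with Gnai2 and Dcn not counted, a setting chosen after seeing the data. DESeq2 called 142 (126 of the 216), no filter on low counts 558, the replicate block 706, at least 2 selectin UMIs 331, thinned cells 112 (79 of the 197 still tested), and cells without a lymphatic UMI 37 (28 of the 198 still tested), of which 16.2% were higher, against 45.8% in the test reported and 54.1% under the block. Leaving out 1 library sum gave 196 to 458 calls, with the lone sum of a group assumed to vary like the other group. Leaving out cells with at least 3 UMIs of any other type left 20 of 43 endothelial cells as members (46.5%) and 3 calls, since Gnai2 and Dcn were widely seen. There the log2 fold changes of Emcn (-0.27), Bst1 (-0.15), Csf1 (-0.16) and Gpihbp1 (0.19) turned, and shares of members were 55.0% for Vcam1, 95% for Emcn, 30.0% for Nr2f2, 40.0% for Icam1 and 5.0% for Ackr1. Thinning moved shares to 67.3% (Vcam1), 96.3% (Emcn), 57.2% (Nr2f2), 47.1% (Icam1), 70.3% (Vwf) and 9.48% (Ackr1), and Nr2f2 ranged from 71.3% to 80.3% by library. S100a8 turned to -3.92 when thinned, where it was called lower (edgeR adjusted p = 0.00845), and Epha5 to -0.17 at 10%. Of 61 named genes that were called, 10 were called in each alternative in which they were tested (12 to 16 of 16) and 56 kept their direction in each such alternative. All of these 10 were lower in members, so no named gene higher in members was called in every alternative. For Sele-positive against Selp-only members (11 calls), no filter gave 110, the replicate block 0 (408 with an unadjusted p under 0.05), a mitochondrial limit of 10% 21, no doublets 1, thinned cells 0 (292), cells without other types 0 (44, or 1 call with Gnai2 and Dcn not counted), DESeq2 13, DESeq2 size factors 15 and filterByExpr 11, and leaving out 1 sum gave 67 to 103. Il1b turned to 5.81 when thinned, and Emcn to -0.0311 without Selp-only replicate 2 (0.514 without Selp-only replicate 1) and to -0.78 without other types. The cause was not tested for any of these. The block ended none of the 216 calls between members and comparators, and the genes of the lists that it added are named above. With 2 libraries and 184 comparators, a difference of 1 on the log2 scale was often below what could be called.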

Other observations

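Other genes outside the lists differed between members and comparators in the edgeR test, and those given here were chosen after their values were seen. Enpp2, which encodes autotaxin, the enzyme that makes lysophosphatidic acid, stood at 67.6 and 106 CPM in members against 25.8 and 16.2 in comparators (log2 fold change 2.16, adjusted p = 0.00575). Pthlh, the parathyroid hormone-related peptide, and Apoa1, the main apolipoprotein of high-density lipoprotein, were higher by log2 fold changes of 1.88 and 1.65.

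Lower in members were Glul, the glutamine synthetase, at 70.3 and 69.4 CPM in members against 639 and 417 in comparators (log2 fold change -2.81, adjusted p = 0.000118), and Fbln2, a matrix fibulin, at 8.24 and 2.55 CPM in members against 73.8 and 65.0 in comparators (-3.57, adjusted p = 0.00119). Prom1 and Igfbp3, an insulin-like growth factor binding protein, had log2 fold changes of -2.75 and -2.53.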
